A study of Mus musculus with 23 samples.

Results

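The set described here is 10 genes of branched-chain amino acid catabolism (Bcat2, Bckdha, Bckdhb, Dbt, Bckdk, Ivd, Mccc1, Hibch, Hibadh and Pcca), chosen by symbol from the 24029 genes of the deposited expression table, and all 10 were found. The RNA is of C3H10T1/2, a mesenchymal stem cell line from C3H mice that can be turned into fat cells. Its 6 libraries form 6 groups, and with 1 library a group the values carry no replicate error. Day 7 (mature adipocytes) has 4 libraries, 3 of them made by TELP, a way of building sequencing libraries, and labelled T18, N9_ss and N9, and 1 by a standard procedure from oligo(dT)-selected mRNA. Day 0 (pre-adipocytes) has 2, TELP N9 and standard. What N9, ss and T18 stand for is not stated. Per the labels' protocols, all cultures were first given 8.3 nM human recombinant BMP7 for 3 days. They were then induced with 5 uM DEX, 0.5 mM IBMX, 0.12 ug/ml insulin, 1 uM Rosi and 1 nM T3, and kept on insulin, Rosi and T3 to day 7. Day 0 cells therefore carry the BMP7 step too, and the agents, the days and the differentiation cannot be told apart. No label says whether the libraries come from separate cultures.

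Leucine, isoleucine and valine are broken down in mitochondria. BCAT2 moves their amino group to 2-oxoglutarate, and the branched-chain 2-oxo acid dehydrogenase complex (BCKDH) then decarboxylates the resulting keto acids in the step that commits them to oxidation. The complex is switched off when its kinase BCKDK phosphorylates the E1 alpha subunit and switched on again by the phosphatase PPM1K. Separate branches then lead to acetyl-CoA, acetoacetate and propionyl-CoA. Fat is a tissue known for branched-chain amino acid use, and this pathway is known to be induced when fat cells form in culture.

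The promoters of 3 members are shown, those of the genes with the largest and the smallest difference between day 7 and day 0 (Bckdhb and Bckdk) and of the gene with the highest level at day 7 in the N9, N9_ss and standard libraries (Hibadh). Each is the 250 bases before a RefSeq start in build GRCm38.p6, which is not the mm9 build of the expression table, written 5′ to 3′ on the gene's strand. Capitals mark GGGCGG (the GC box), CCAAT and TATAAA on either strand.
Bckdhb, chr9:83924887-83925136, plus strand: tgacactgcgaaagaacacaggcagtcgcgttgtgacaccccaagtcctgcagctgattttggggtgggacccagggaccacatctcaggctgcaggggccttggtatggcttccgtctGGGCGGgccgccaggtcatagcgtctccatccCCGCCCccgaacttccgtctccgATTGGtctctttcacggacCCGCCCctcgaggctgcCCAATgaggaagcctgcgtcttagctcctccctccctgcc
Bckdk, chr7:127903823-127904072, plus strand: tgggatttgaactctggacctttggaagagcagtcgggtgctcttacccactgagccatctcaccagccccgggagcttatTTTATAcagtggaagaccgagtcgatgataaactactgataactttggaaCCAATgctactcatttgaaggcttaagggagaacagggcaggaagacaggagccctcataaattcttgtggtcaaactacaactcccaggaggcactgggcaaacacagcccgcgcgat
Hibadh, chr6:52640301-52640550, minus strand: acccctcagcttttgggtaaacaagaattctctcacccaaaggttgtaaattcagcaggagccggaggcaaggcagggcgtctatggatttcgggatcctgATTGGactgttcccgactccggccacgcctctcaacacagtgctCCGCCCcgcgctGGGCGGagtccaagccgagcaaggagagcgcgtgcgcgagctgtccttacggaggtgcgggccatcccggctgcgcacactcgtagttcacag
In these windows Bckdhb holds 3 GC boxes and 2 CCAAT motifs, Hibadh 2 and 1, and Bckdk 0 GC boxes, 1 CCAAT and 1 TATAAA, which lies 169 bases before the start. Bckdhb has another RefSeq start, whose window is not shown and holds 0 of each motif. RefSeq starts were at hand for 9 of the 10 members, in 12 windows, and Dbt is named only. GGGCGG was in 5 of the 12 windows (of Bckdhb, Hibadh, Hibch, Mccc1 and Pcca) and in 32.7% of all 32851 windows of the same length. CCAAT was in 7 of the 12 (of the same genes without Hibch, and of Bckdk and Ivd), against 33.8% of all windows, and TATAAA in 1 (Bckdk), against 12.4%. The nuclear receptor motif AAGGTCA was in 0 of the 12 windows and in 4.08% of all, and 2 copies of AGGTCA 1 base apart (DR1), which can overlap AAGGTCA, were in 0 and 0.0335%. The NRF1 motif was in 1 (Hibadh) and 3.74%. A match is a description of letters and not a binding site.

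Levels are in RPKM, reads scaled by gene length and by the library's reads, so genes can be set side by side. The libraries differed in depth. The ratio that low values most often share puts TELP N9 day 7 at 0.243 times the depth of TELP N9 day 0, standard day 7 at 0.985 times standard day 0, and T18 at 0.866 times N9. N9_ss repeats N9 closely, since 84.2% of 3609 genes under 1 RPKM had 1 shared ratio (within 0.0015 on the natural log scale), against 5.01% to 10.6% for the other pairs, and it was not used as a replicate. In T18 the 10 genes with most RPKM held 79.8% of the total, against 32.8% in N9 and 9.80% in standard day 7. Summed RPKM of 7 adipocyte markers (Fabp4, Adipoq, Cidec, Plin1, Lipe, Pparg and Cebpa) was 4613 in T18, 30864 in N9_ss, 30399 in N9 and 13339 in standard at day 7, against 31.7 in TELP N9 and 40.6 in standard at day 0. Summed RPKM of 5 pre-adipocyte markers was 39.9 in N9 and 157 in standard at day 7, against 323 and 271 at day 0. Of 22 measured markers of bone, cartilage, muscle, endothelium, leukocytes and liver, 5 reached 1 RPKM in any library (Runx2, Col2a1, Acta1, Tek and Cd68). The sum of all 22 was 3.67 to 15.5 RPKM at day 7, against 46.1 to 68.7 at day 0, and Ibsp, Ckm, Alb, Apoa1 and Ttr were listed at 0 in every library. Their part in the results was not tested.

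The first comparison asked how these genes differed between adipocytes and pre-adipocytes. In TELP N9 and in standard all 10 were higher at day 7, and for all 10 both of these day 7 values lay above both day 0 values. In T18 the values of 4 of 10 did, and those of the other 6 lay below both. Summed over the 10 genes, 728 RPKM at day 7 stood against 112 at day 0 in TELP N9, a ratio of 6.52, and 450 against 116 in the standard libraries, a ratio of 3.89. A gene was called higher at a difference of at least 1 on the log2(RPKM + 1) scale, which understates the change of low genes. All 10 passed the filter of a mean of at least 1 RPKM, and none was listed at 0 in any library. By this rule 10 members were called higher and 0 lower in TELP N9, where 13.9% of 11360 genes were called higher and 29.9% lower. In the standard libraries 8 were called higher and 0 lower, where 8.22% of 11312 genes were called higher and 6.53% lower. Called higher in both library types were 8 of 10, against 7.23% of 11474 genes, and lower in both 0, against 5.81%, and positive in both were 10 of 10, against 26.1%. The median difference of the members was 2.22 in TELP N9 and 1.54 in standard, where all genes kept had medians of -0.45 and -0.18. Median-of-ratios scaling moved the medians of all genes to 0.03 and -0.05 and those of the members to 2.67 and 1.60. The members' share of all summed RPKM was 0.125% in N9 and 0.132% in standard at day 7, against 0.0273% and 0.0334% at day 0. In bulk samples a larger share of cells that express a gene and more RNA per cell cannot be told apart.

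**Figure D1:**
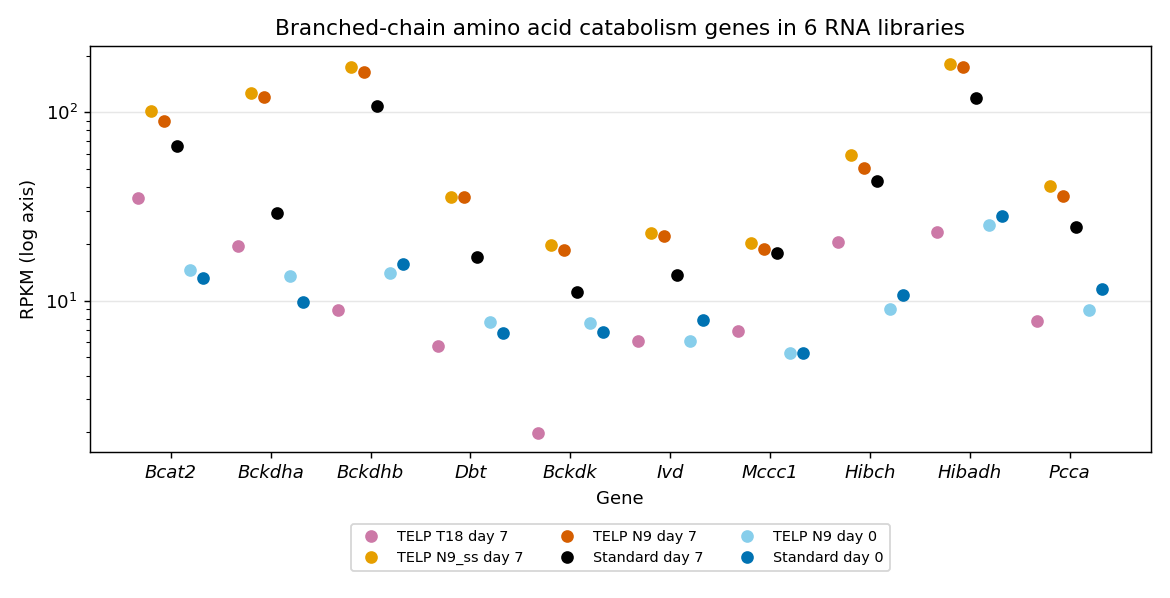
Levels of the 10 genes in RPKM (log axis), 1 point per library, coloured by library, with day 7 libraries left of day 0 libraries for each gene. The N9 and standard points of day 7 lie above both day 0 points for all 10 genes, and T18 is the lowest day 7 library for all 10.

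At the entry of the pathway, Bcat2, the mitochondrial aminotransferase, was at 35.0 (T18), 102 (N9_ss), 89.5 (N9) and 66.3 (standard) RPKM at day 7, against 14.5 (TELP N9) and 13.2 (standard) RPKM at day 0. Every day 7 library, of which N9_ss repeats N9, was above both day 0 libraries. The difference was 2.54 in TELP N9 and 2.24 in the standard libraries, a ratio of 6.17 and 5.00 in RPKM. Bcat1, the cytosolic form of the enzyme, stayed under 1 RPKM in every library, at 0.26 and 0.52 in N9 and standard at day 7, against 0.47 and 0.53 at day 0. Bcat2 was therefore the main aminotransferase transcript at both days, at 342 and 128 times the RPKM of Bcat1 at day 7 in N9 and standard, and at 30.6 and 25.2 times at day 0.

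In N9, N9_ss and standard all subunit genes of BCKDH were higher at day 7, by unequal amounts. Bckdhb, the E1 beta subunit, was at 8.96 (T18), 173 (N9_ss), 163 (N9) and 107 (standard) RPKM at day 7, against 14.0 (TELP N9) and 15.6 (standard) RPKM at day 0. T18 was thus below both day 0 libraries, and the other day 7 libraries far above them. Its difference of 3.45 in TELP N9 and 2.71 in standard was the largest of the 10 members in both library types, at percentile 97.5 and 98.2 of all genes kept. Bckdha, the E1 alpha subunit that carries the regulatory phosphorylation, was at 19.5 (T18), 126 (N9_ss), 120 (N9) and 29.2 (standard) RPKM at day 7, against 13.5 (TELP N9) and 9.82 (standard) RPKM at day 0. Its differences of 3.06 in TELP N9 and 1.48 in standard were the farthest apart among the members. Dbt, the E2 core that passes the acyl group to coenzyme A, was at 5.71 (T18), 35.3 (N9_ss), 35.5 (N9) and 17.1 (standard) RPKM at day 7, against 7.66 (TELP N9) and 6.72 (standard) RPKM at day 0. It differed by 2.07 in TELP N9 and 1.23 in standard, less than either E1 subunit in the same library type. Dld, the E3 subunit that BCKDH shares with pyruvate and 2-oxoglutarate dehydrogenase, was higher by 2.75 and 1.70.

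Bckdk, the kinase that inactivates the complex, differed least. It was at 1.98 (T18), 19.8 (N9_ss), 18.5 (N9) and 11.1 (standard) RPKM at day 7, against 7.61 (TELP N9) and 6.81 (standard) RPKM at day 0. The difference was 1.18 in TELP N9 and 0.63 in standard, so it was called in TELP N9 only, and whether the library types differ was not tested. That call was lost with equal totals (0.70) and with a pseudocount of 5 (0.90), which left 9 members called in TELP N9. Ppm1k, the phosphatase that opposes the kinase, was at 2.78 and 2.26 RPKM in N9 and standard at day 7, against 2.93 and 1.96 at day 0, differences of -0.05 and 0.14 that were not called.

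Ratios of RPKM within a library do not change when a library is multiplied by 1 factor. The ratio of Bckdk to Dbt was 0.346 in T18, 0.561 in N9_ss, 0.521 in N9 and 0.647 in standard at day 7, against 0.994 in TELP N9 and 1.01 in standard at day 0. The kinase transcript was thus about level with that of the E2 core at day 0 and below it in all 4 day 7 libraries, of which N9_ss repeats N9. Relative to Bckdhb, Bckdk was at 0.221 in T18, 0.113 in N9 and 0.103 in standard at day 7, against 0.544 in TELP N9 and 0.438 in standard at day 0. The ratio of Bckdha to Bckdhb, which encode subunits that pair in the E1 heterotetramer, was 2.18 in T18, 0.734 in N9 and 0.272 in standard at day 7, against 0.963 in TELP N9 and 0.632 in standard at day 0. This ratio differed more between libraries of day 7 than between days. With 1 library a group, none of these ratios has an error.

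**Figure D2:**
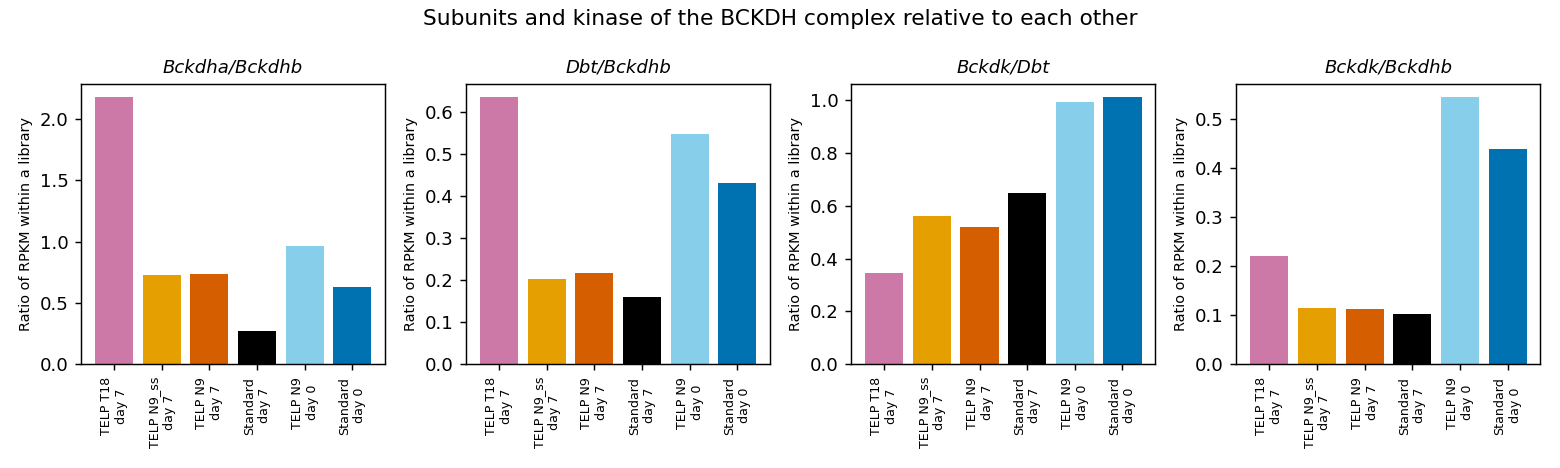
Ratios of RPKM within each library for 4 pairs of BCKDH genes, 1 bar per library, axes starting at 0, day 7 libraries on the left. The ratio of Bckdk to Dbt is 0.346 to 0.647 in the 4 day 7 libraries, of which N9_ss repeats N9, against 0.994 and 1.01 at day 0.

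In the leucine branch, Ivd, the isovaleryl-CoA dehydrogenase, was at 6.08 (T18), 22.7 (N9_ss), 22.1 (N9) and 13.7 (standard) RPKM at day 7, against 6.13 (TELP N9) and 7.90 (standard) RPKM at day 0. It differed by 1.70 in TELP N9 and by 0.72 in standard, under the call. Mccc1, the biotin-bearing subunit of methylcrotonyl-CoA carboxylase, was at 6.87 (T18), 20.2 (N9_ss), 18.8 (N9) and 17.8 (standard) RPKM at day 7, against 5.29 (TELP N9) and 5.25 (standard) RPKM at day 0. Its differences of 1.66 and 1.59 were the closest between library types among the members. Its partner subunit Mccc2 was higher by 2.04 and 1.16.

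In the valine branch, Hibch, the hydrolase that frees 3-hydroxyisobutyrate from coenzyme A, was at 20.6 (T18), 59.0 (N9_ss), 50.6 (N9) and 43.3 (standard) RPKM at day 7, against 8.97 (TELP N9) and 10.6 (standard) RPKM at day 0. All 4 day 7 libraries, of which N9_ss repeats N9, were above both day 0 libraries. The differences were 2.37 in TELP N9 and 1.93 in standard. Hibadh, which oxidizes 3-hydroxyisobutyrate, was at 23.2 (T18), 180 (N9_ss), 174 (N9) and 119 (standard) RPKM at day 7, against 25.1 (TELP N9) and 28.1 (standard) RPKM at day 0. It had the highest level of the 10 in every library but T18, where Bcat2 was higher, and differed by 2.75 and 2.05. Pcca, the biotin-bearing subunit of propionyl-CoA carboxylase, which takes the propionyl-CoA made from valine and isoleucine, was at 7.78 (T18), 40.4 (N9_ss), 36.1 (N9) and 24.6 (standard) RPKM at day 7, against 8.92 (TELP N9) and 11.5 (standard) RPKM at day 0. It differed by 1.90 and 1.03, and the standard value lay just past the call. With a pseudocount of 5 the standard values of Pcca (0.84) and Dbt (0.92) were not called.

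Across library types a test could be made, with the type as block. In limma on log2(RPKM + 1) of the 4 N9 and standard libraries, with 1 residual degree of freedom and an intensity trend, 2 of the 10 members passed a false discovery rate of 0.05 over all genes kept, where 1.41% of genes passed as higher. These were Bckdhb (mean difference 3.08 ± 0.33 SE, adjusted p 0.0419) and Bcat2 (2.39 ± 0.28 SE, adjusted p 0.0485). Hibch and Hibadh followed at limma adjusted p 0.0578 and 0.0603, and Bckdk was last at 0.169. All 10 had an unadjusted limma p under 0.05, as did 11.0% of all genes with higher values. Without the intensity trend, a choice made after seeing the data, 0 of 10 passed in limma (9 at an unadjusted p under 0.05), where 0.715% of genes did, and the smallest adjusted p was 0.0602. The error in this fit is the disagreement of the day difference between the 2 library types, shrunk toward a value estimated over all genes. That shared value carried 3.39 prior degrees of freedom, against 1 residual. It is not a spread between cultures.

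The genes also stood higher in the order of expression within a library, which none of the scalings alters. Among the 11474 genes kept, the median member lay at percentile 87.0 in N9 and 79.5 in standard at day 7, against 45.7 in TELP N9 and 50.6 in standard at day 0. In T18 it lay at 86.6. At day 7 Hibadh led in N9 and standard at percentiles 96.5 and 95.9, and Bckdk was lowest at 73.4 and 56.0. At day 0 Hibadh also led in TELP N9 and standard, at 76.4 and 79.4, and Mccc1 was lowest at 29.7 and 30.5. The span between the highest and the lowest member was 9.43 and 10.8 times in N9 and standard at day 7, against 4.75 and 5.35 times at day 0.

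**Figure D3:**
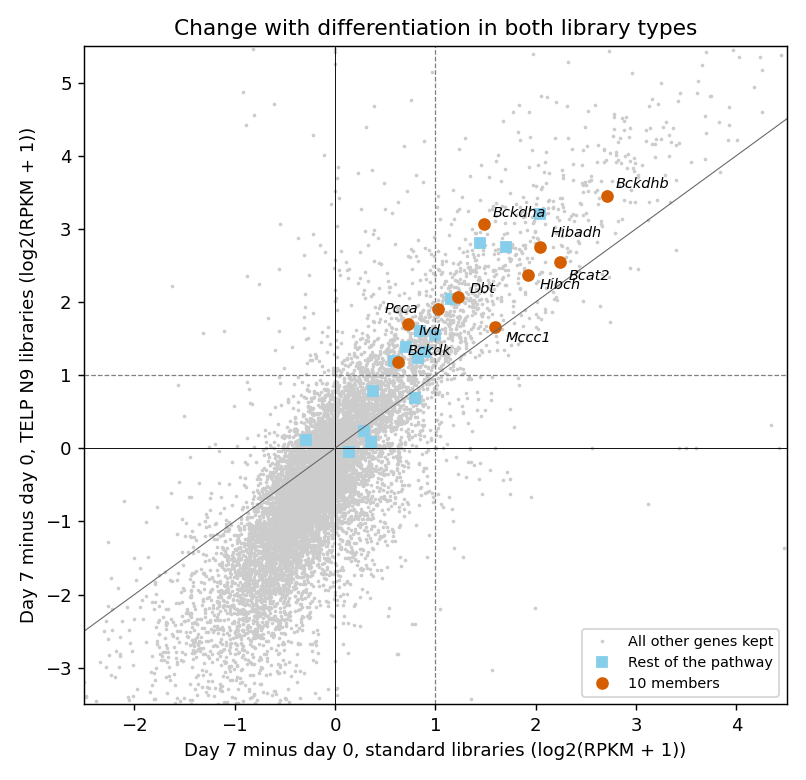
Day 7 minus day 0 on log2(RPKM + 1) in the standard libraries (horizontal axis) and the TELP N9 libraries (vertical axis), 1 point per gene, with dashed lines at the call of 1 and the diagonal of equality; genes beyond the axis limits are not drawn. As deposited, all 10 members lie above the diagonal, and 8 lie past 1 on both axes.

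The rest of the pathway differed less evenly. Of 17 further enzymes 16 were kept, and 4 were called higher in both library types (Dld, Mccc2, Echs1 and Aldh6a1) and 0 lower, with medians of 1.28 in TELP N9 and 0.81 in standard. A further 6 were called in TELP N9 only, among them Auh, Acat1, Pccb, Mut and Mmab. In limma with library type as block 0 of the 16 passed, where 1.41% of genes passed as higher, and the smallest adjusted p was 0.0694. An unadjusted limma p under 0.05 was found for 11, all with higher values at day 7, where 11.0% of all genes had one with higher values. Aldh6a1, which follows Hibadh in valine breakdown, was at 176 and 87.6 RPKM in N9 and standard at day 7, against 18.2 and 20.5 at day 0, the largest difference of these 17 at 3.21 and 2.04. By the mean of both library types the lowest of the 16 kept were Acadsb, the dehydrogenase of the isoleucine branch, at 0.12 and -0.28, Ppm1k, and Mmaa, a chaperone of cobalamin loading, at 0.08 and 0.36. Grouped by branch, which was done after the values were seen, all 5 genes of the shared steps were called in both library types (Bcat2, Bckdha, Bckdhb, Dbt and Dld). In the valine branch 4 of 5 were called, in the leucine branch 2 of 4, in the propionyl-CoA branch 1 of 6 (Pcca) and in the isoleucine branch 0 of 3. The medians in TELP N9 and standard were 2.75 and 1.70 for the shared steps, 2.75 and 1.93 for valine, 1.68 and 0.94 for leucine, 1.28 and 0.86 for propionyl-CoA and 0.23 and 0.29 for isoleucine.

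**Figure D4:**
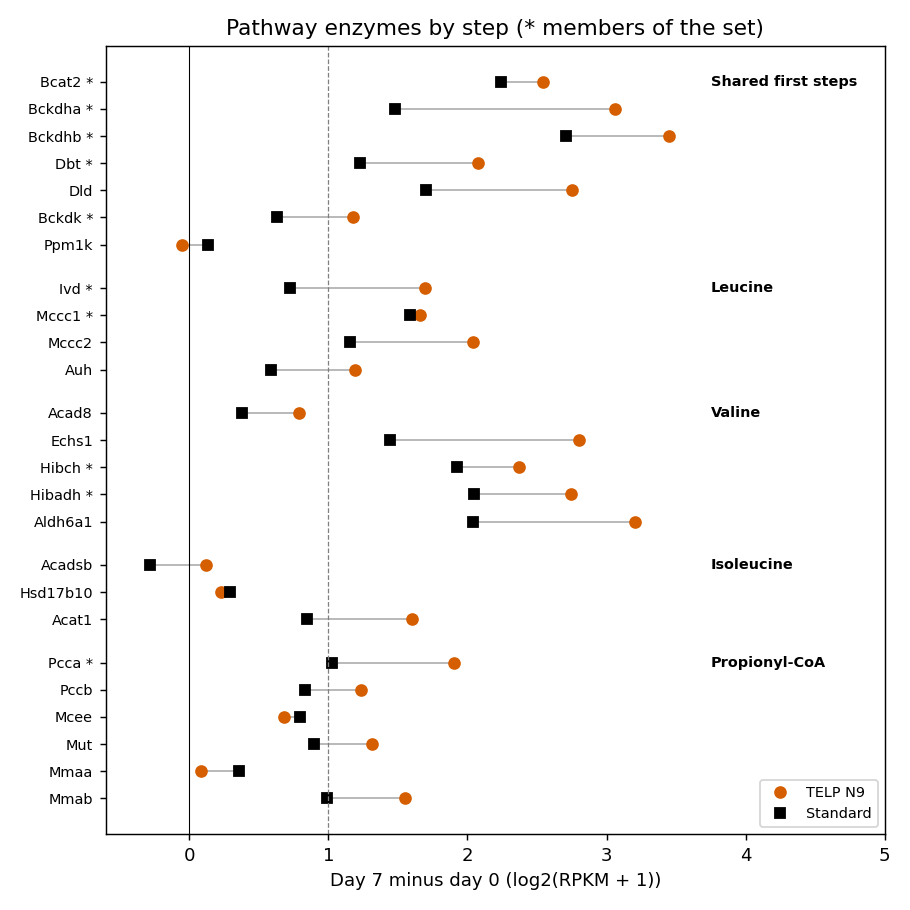
Day 7 minus day 0 on log2(RPKM + 1) for the members (starred) and further enzymes of the pathway, ordered by step, with TELP N9 as circles and standard as squares; the dashed line is the call of 1, and not every enzyme counted is drawn. Both points lie past 1 for all 5 genes from Bcat2 to Dld and for none of the 3 isoleucine genes.

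Lists of related genes give the setting. Of 7 genes of transport and regulation 5 were kept and 1 was called higher in both types, Klf15, a transcription factor known to control branched-chain amino acid breakdown in muscle, at 8.16 and 2.83 RPKM in N9 and standard at day 7, against 0.697 and 0.266 at day 0. Slc25a44, a mitochondrial carrier of branched-chain amino acids, differed by 1.39 and 0.86, and the plasma membrane transporter subunits Slc7a5 and Slc3a2 by 0.01 and 0.44 and by 0.66 and -0.16. Of 12 genes of the sister dehydrogenase complexes 8 were called higher in both types, among them Dlat (3.51 and 2.47) and Pdk4, a pyruvate dehydrogenase kinase (4.09 and 2.68). In both types 0 were called lower, but 2 were in TELP N9, Pdp1 (-2.27 and -0.47) and Pdk3 (-1.09 and -0.73). The median of the 12 was 2.5 in TELP N9 and 1.60 in standard. Of the biotin enzymes outside the set 3 of 5 were called, led by Pcx, pyruvate carboxylase, at 5.80 and 4.75. Hlcs, the ligase that attaches biotin to all these carboxylases, was not called at 0.25 and 0.09. Of 14 mitochondrial housekeeping genes 3 were called in both (Tomm40, Hspa9 and Hspd1), with medians of 1.16 and 0.61. Enzymes for other amino acids had 4 of 16 kept genes called higher in both (Gcsh, Fah, Gstz1 and Dlst) and medians of 0.15 and 0.50. Got2 and Oat, enzymes of aspartate and ornithine, were among their lowest, at -1.27 and 0.07 and at -1.37 and -0.49. No test between the lists was made.

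The second question was whether TELP N9 and standard libraries give these genes different levels. At day 0 the members differed little, by -0.34 (Pcca) to 0.42 (Bckdha), with a median of -0.07, 5 above and 5 below 0, and 0 of 10 were called, where 2.20% of genes were called higher and 0.718% lower. At day 7 all 10 were higher in TELP N9 in RPKM as deposited, while after scaling to equal totals 8 of 10 were lower but all 10 lay above the median of all genes. As deposited the differences ran from 0.08 (Mccc1) to 2.00 (Bckdha), with a median of 0.57 where all genes kept had -0.23. By size 2 were called, Bckdha and Dbt (1.01), where 7.51% of genes were called higher, and 0 were called lower, where 17.0% were. With equal totals their median was -0.19, where all genes had -0.91, and Bckdha alone was called. The change from day 0 to day 7 was larger in TELP N9 than in standard for 10 of 10 members as deposited and for 7 with equal totals (not Bcat2, Mccc1 and Hibch). As deposited it was larger by 0.07 (Mccc1) to 1.58 (Bckdha), where 34.1% of genes had a larger change, and by at least 1 for Bckdha alone, against 5.99% of genes. These values share libraries with the first comparison. Summed adipocyte markers were also higher in N9 than in standard at day 7, at 30399 against 13339 RPKM, and their part in this difference was not tested.

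The third comparison set T18 and N9_ss against N9 at day 7. In T18 all 10 members were called lower than in N9, but so were 83.4% of all genes kept, and 0 were called higher, against 0.841%. Summed, the members held 136 RPKM in T18 and 728 in N9. The median of the members was -2.26, where that of all genes was -1.77, and 4 of 10 lay above the median of all genes (Hibch, Bcat2, Mccc1 and Ivd). The members were spread from -4.04 for Bckdhb, at percentile 1.45 of all genes, to -1.26 for Hibch, at percentile 74.7. Under median-of-ratios scaling the range was -1.93 to 0.91 with a median of -0.19, and Bckdhb was the 1 member still called lower. The order of levels thus differed, with Bcat2, Hibadh, Hibch, Bckdha and Bckdhb leading from high to low in T18, and Hibadh, Bckdhb, Bckdha, Bcat2 and Hibch in N9. In T18 4 members were above both day 0 libraries (Bcat2, Bckdha, Mccc1 and Hibch) and 6 below both, on the RPKM scale. N9_ss and N9 were alike, with differences of -0.01 (Dbt) to 0.22 (Hibch), and 0 of 10 members were called in either direction, where 0.0194% of genes were called higher and 0.00968% lower.

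**Figure D5:**
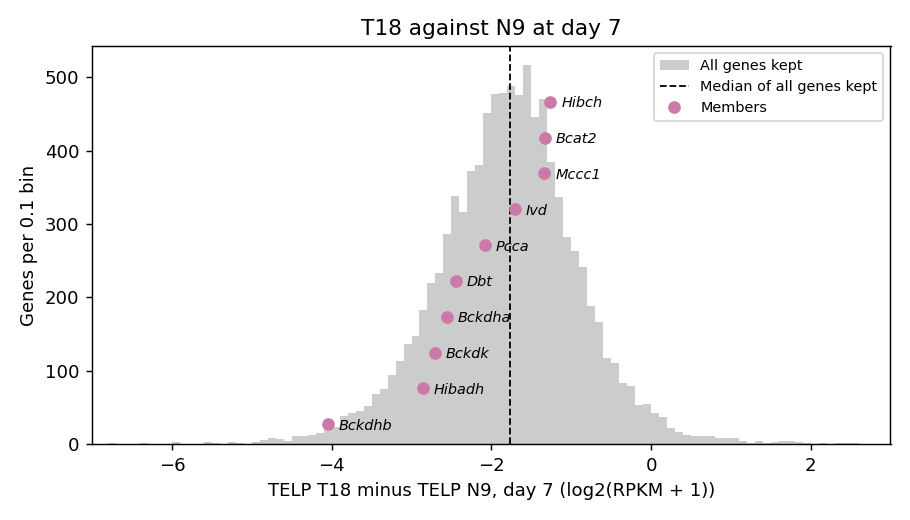
T18 minus N9 at day 7 on log2(RPKM + 1), as a histogram of all 9753 genes kept (grey, genes beyond the axis limits not drawn) with the members as points, stacked for legibility, and the median of all genes as a dashed line at -1.77. The members run from -4.04 (Bckdhb) to -1.26 (Hibch), and 4 of 10 lie right of the dashed line; under median-of-ratios scaling 5 members change sign.

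Likeness of pattern was measured as the root mean square difference of log2(RPKM + 1), each gene centred on its own mean, over the 5 libraries other than N9_ss. Among 11266 genes kept, those nearest to the median profile of the members were Mrpl20, a mitochondrial ribosomal protein (0.079), Ndufa10, a subunit of respiratory complex I (0.095), Slc35g1 (0.115), Pdp2, a pyruvate dehydrogenase phosphatase (0.128), and Clybl, a mitochondrial lyase of citramalyl-CoA (0.128). Mrpl20 was at 33.0 (T18), 140 (N9) and 93.9 (standard) RPKM at day 7, against 33.8 (TELP N9) and 29.1 (standard) at day 0. The members themselves lay at 0.206 (Dbt) to 0.779 (Bckdhb) from that profile. Nearest to Bcat2 were Rxrg, a retinoid X receptor (0.124), Gstz1, an enzyme of tyrosine breakdown (0.135), Lrig1 (0.141), Ucp3, a mitochondrial carrier (0.160), and Acat3, a cytosolic thiolase (0.202), and Hibch was the nearest member at 0.179. Rxrg and Ucp3 are low genes that were listed at 0 in a day 0 library, where log2(RPKM + 1) compresses differences.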

How the data were processed

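The authors deposited RPKM values of 24029 genes, reads scaled by gene length and library reads, in 6 columns. The submitters' processing notes name Bowtie2, TopHat, Cufflinks and mm9. No version, annotation, strand setting or read total is given in the sources used here. Without strand, reads of a gene and of one that overlaps it cannot be told apart. In RefSeq's GRCm38.p6 annotation 2 genes of the table overlap members, 0610005C13Rik with Bcat2 and Mccc1os with Mccc1, and both stayed under 0.5 RPKM. Absolute depth was not recovered, and relative depth came from the commonest ratio of genes under 1 RPKM. The other 17 samples of the series, chromatin immunoprecipitation libraries of C3H10T1/2 and 3T3-L1 cells, were not analysed here.

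From the RPKM values, differences were computed on log2(RPKM + 1) for genes averaging 1 RPKM or more in the libraries compared, and called at an absolute difference of at least 1. The limma fit (limma 3.58.1, R 4.3.3) took the 4 TELP N9 and standard libraries with library type as block, an intensity trend in eBayes and Benjamini-Hochberg adjustment over 11474 genes. Calls and fit were run on simulated data with small noise and no difference between library types. As the real libraries differ more, this checked the code only. The members and lists were chosen with earlier results of these data known. The 10 members are all named, and genes of other lists where they were called in both library types or were among the 3 highest or lowest of a list (some of these stand only in the counts). Genes outside this rule (Bcat1, Auh, Acat1, Pccb, Mut, Mmab, Pdk1) were named after their values were seen. Some genes of the lists enter the counts and are not reported here by name. Alternatives were pseudocounts of 0.1 and 5 RPKM, no filter, a filter at 5 RPKM, 3 scalings (median of ratios, equal totals, quantile), N9_ss or T18 in place of N9, thresholds of 0.5 and 1.5, and limma with and without the block. The fit without the trend was added after seeing the data. Promoters are from RefSeq, build GRCm38.p6, matched by symbol.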

Additional observations from a re-analysis of the deposited data

Results flagged for a closer look

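With 1 library a group no sample could be tested for standing apart. All 10 members differed in the same direction in both library types between day 7 and day 0. Among the other genes that the naming rule covers, 7 had differences of opposite sign in TELP N9 and standard, and none of these differences between library types was tested. Got2, a mitochondrial aspartate aminotransferase, had the largest of these 7, with -1.27 in TELP N9 and 0.07 in standard. Its TELP N9 difference minus the standard one was -1.33. Slc3a2 (0.66 and -0.16) had 0.82, Slc43a2 (-0.70 and 0.01) had -0.72, and Tfam (0.36 and -0.16) had 0.52. Acadsb (0.12 and -0.28) had 0.40, Tomm22 (-0.10 and 0.14) had -0.24 and Ppm1k (-0.05 and 0.14) had -0.19. Outside the rule, Pdk1 of the sister complexes (3.34 and -0.04) had a larger one, 3.38, which was not tested either.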

How the results depend on the processing

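No paired analysis was possible because the RNA columns carry no replicate numbers; library type was the block in the limma fit. At day 7 against day 0 the 8 members called in both library types were 8 in count at a pseudocount of 0.1, without a filter, with the filter at 5 RPKM and under 3 scalings. They were also 8 with N9_ss in place of N9, but N9_ss repeats N9 closely, so this is no separate check. They were 6 at a pseudocount of 5, 10 at a threshold of 0.5, 5 at a threshold of 1.5 (5 in the standard libraries alone), 2 with T18 in place of N9, 2 in limma with library type as block, 3 without the block and 0 in limma without the trend, a fit added after seeing the data (9 at an unadjusted p under 0.05). With T18 in place of N9 the members higher in TELP were 2 and lower 1, and 6 changed sign: Bckdhb -0.59, Dbt -0.37, Bckdk -1.53, Ivd -0.011, Hibadh -0.11 and Pcca -0.18, where the median of all genes was -2.11. For TELP N9 against standard at day 7 the 2 members called higher were 1 with a pseudocount of 5, 1 under equal totals, 7 at a threshold of 0.5 and 1 at 1.5. For T18 against N9 the 10 members called lower were 1 under median of ratios and 1 under quantile normalization, where 5 changed sign: Bcat2 0.87 and 0.71, Ivd 0.35 and 0.39, Mccc1 0.74 and 0.75, Hibch 0.91 and 0.82, and Pcca 0.014 and 0.079. Among single members' values called at the main settings, 24 lost the call with their sign kept and a further 16 changed sign. Among those not called, 8 gained the call. Values under the call that changed sign are not in these counts. Such were 8 members for TELP N9 against standard at day 7 under equal totals. For T18 against N9, median of ratios and quantile normalization put the median of all genes at -0.05 and 0.0035, against -1.77 as deposited. Beyond that the cause was not tested. The share of all genes called was not computed at other pseudocounts, filters, scalings or thresholds, or with a library replaced. A lower threshold lets more of all genes be called too, so these counts of members have no background beside them. Absolute depth is unknown, so no counting interval can be given, and 1 library a group limits every comparison.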
